A study of Mus musculus with 8 samples.

Results

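The 10 genes analysed mark Kupffer cells and other macrophages, and they were followed across 8 mouse livers: Cd68, Cd14, C1qa, C1qb, C1qc, Fcgr1, Mpeg1, Gpnmb, Marco and Clec4f. Every probe set that the platform annotation assigns to one of them was used, which gave 12 probe sets for 10 genes out of 12393 genes in the annotation. All 12 passed the filter on low values, and they were 12 of the 15838 probe sets tested. All mice were C57B6 animals null for the low density lipoprotein receptor, aged 8 months, after 12 weeks of Western diet. An adeno-associated virus (AAV2.8) given at an age of 10 weeks carried the transgene, which was GFP in the controls and the human form of LXRα (liver X receptor α) in the others. The thyroxine binding globulin promoter of human origin that drove the transgene is specific to liver, and this globulin is a product of hepatocytes, not of macrophages. For the last 3 days the mice received intraperitoneal vehicle or T0901317, a synthetic agonist of LXR, at 5 mg/kg, an agent that can reach macrophages as well as hepatocytes. Crossing transgene and treatment gives 4 groups, named GFP vehicle, LXRα vehicle, GFP T0901317 and LXRα T0901317, of 2 arrays each with 1 mouse per array. No group without virus was analysed here, so the GFP vehicle livers are the reference for an LXRα effect, and the receptor deletion, the diet and the virus are common to all groups.

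Kupffer cells are the resident macrophages of the liver sinusoids, where they clear particles, bacterial products and modified lipoproteins from portal blood. Macrophages are also the main source of C1q, the recognition molecule of the classical complement pathway, whose A, B and C chains are encoded by C1qa, C1qb and C1qc. LXRs are active in macrophages, where oxysterols switch on cholesterol efflux and agonists dampen inflammatory genes. PU.1, an ETS family factor, is a central regulator of macrophage genes and binds purine-rich sites with a GAGGAA core.

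Promoter sequences of 8 of the genes were read from RefSeq (build GRCm38.p6), from 250 bases before to 50 bases after the start site given there, in the gene's own direction. C1qa and Cd14 were not among them, so the counts below leave these genes out. They are shown because most of the markers varied together over the arrays, and 5 are printed as examples. GAGGAA on either strand was present in 5 of the 8 windows, against 28.3% of 32851 promoter windows of this length (9289). The nuclear receptor core motif AGGTCA, also on either strand, was present in 2 of the 8, against 16.3% of all windows (5340). The 2 motifs share no base in these windows. Capitals mark GAGGAA, written TTCCTC where it lies on the other strand. C1qb and C1qc are neighbours on chromosome 4 with C1qa, Cd68 had a large difference between LXRα and GFP vehicle livers, Fcgr1 differed in opposite directions with T0901317 under the 2 transgenes, and Clec4f, the most Kupffer-restricted marker, had a small one.
C1qb, minus strand, chr4:136886151-136886450: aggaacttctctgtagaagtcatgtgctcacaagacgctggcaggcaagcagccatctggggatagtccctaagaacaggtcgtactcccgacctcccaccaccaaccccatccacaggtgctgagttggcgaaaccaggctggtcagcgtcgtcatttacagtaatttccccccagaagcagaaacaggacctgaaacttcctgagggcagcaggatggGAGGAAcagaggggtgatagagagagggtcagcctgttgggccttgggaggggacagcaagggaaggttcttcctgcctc
C1qc, minus strand, chr4:136892865-136893164: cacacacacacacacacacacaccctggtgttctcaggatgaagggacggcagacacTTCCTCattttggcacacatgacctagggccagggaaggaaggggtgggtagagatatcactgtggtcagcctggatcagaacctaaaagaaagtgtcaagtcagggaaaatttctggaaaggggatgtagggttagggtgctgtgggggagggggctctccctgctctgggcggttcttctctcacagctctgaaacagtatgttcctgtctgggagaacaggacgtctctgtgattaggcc
Cd68, minus strand, chr11:69666121-69666420: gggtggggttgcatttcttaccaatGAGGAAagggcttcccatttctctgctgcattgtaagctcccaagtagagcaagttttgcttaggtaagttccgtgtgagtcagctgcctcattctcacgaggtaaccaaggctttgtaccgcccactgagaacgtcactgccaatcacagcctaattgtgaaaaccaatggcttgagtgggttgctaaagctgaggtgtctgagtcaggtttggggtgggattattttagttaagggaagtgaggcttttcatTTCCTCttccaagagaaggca
Fcgr1, minus strand, chr3:96293920-96294219: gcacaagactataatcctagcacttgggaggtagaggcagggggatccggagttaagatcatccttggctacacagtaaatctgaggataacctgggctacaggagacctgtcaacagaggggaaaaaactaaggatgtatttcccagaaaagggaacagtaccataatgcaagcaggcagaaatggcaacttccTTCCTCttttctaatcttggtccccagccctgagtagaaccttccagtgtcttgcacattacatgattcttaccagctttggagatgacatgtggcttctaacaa
Clec4f, minus strand, chr6:83656067-83656366: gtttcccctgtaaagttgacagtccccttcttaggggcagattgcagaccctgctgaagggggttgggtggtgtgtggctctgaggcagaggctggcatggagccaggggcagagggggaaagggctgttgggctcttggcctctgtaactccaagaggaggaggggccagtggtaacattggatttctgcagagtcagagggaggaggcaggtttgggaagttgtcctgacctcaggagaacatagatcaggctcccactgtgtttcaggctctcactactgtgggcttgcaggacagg

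In these windows the motif begins 30 bases before the start of C1qb, 193 bases before that of C1qc and 55 bases before that of Fcgr1. Cd68 holds it at 225 bases before and again 29 bases after its start. Clec4f holds no GAGGAA in this window, but AGGTCA lies on its other strand from 22 bases before the start. C1qc holds AGGTCA on its other strand from 174 bases before the start. Among the windows not printed, that of Marco holds GAGGAA from 146 bases before the start, and those of Gpnmb and Mpeg1 hold none. Between LXRα and GFP vehicle livers Gpnmb differed by -2.81 on the log2 scale, Mpeg1 by -0.70 and Marco by -0.96 (SE 2.15). These matches describe the letters and no binding was measured.

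In livers without agonist, all 10 macrophage genes had a lower mean level under the LXRα transgene than under GFP, by a median of -1.95 on the log2 scale, while the median over all 15838 probe sets was 0.05. Lysosomal Cd68, the lipid-loaded macrophage gene Gpnmb, the lipopolysaccharide co-receptor Cd14 and C1qb were 5.26-fold to 8.59-fold lower, whereas Mpeg1 and Clec4f were 1.62-fold and 1.36-fold lower. The larger folds depend on LXRα vehicle replicate 2, on which Cd68 and Gpnmb were under the floor. Without it the log2 differences were -1.55 for Cd68, -1.84 for Gpnmb, -1.95 for Cd14 and -1.12 for C1qb. With T0901317 the markers were mostly lower than vehicle in GFP livers (8 of 10 genes and 8 of 12 probe sets, against 55.0% of all). There 0 of 12 were at an unadjusted limma p under 0.05, against 13.2% of all. Lists of other resident Kupffer cell and pan-macrophage genes had medians of -0.08 and 0.05 in that comparison. In LXRα livers the markers were mostly higher than vehicle (8 of 10 genes and 10 of 12 probe sets), where 55.5% of all probe sets were lower. None of the 12 probe sets passed the test (limma adjusted p under 0.05) in any comparison. The levels behind these statements follow gene by gene, as intensities on a linear scale. The differences and their standard errors (SE) are on the log2 scale after raising intensities to a floor of 7.50.

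**Figure D1:**
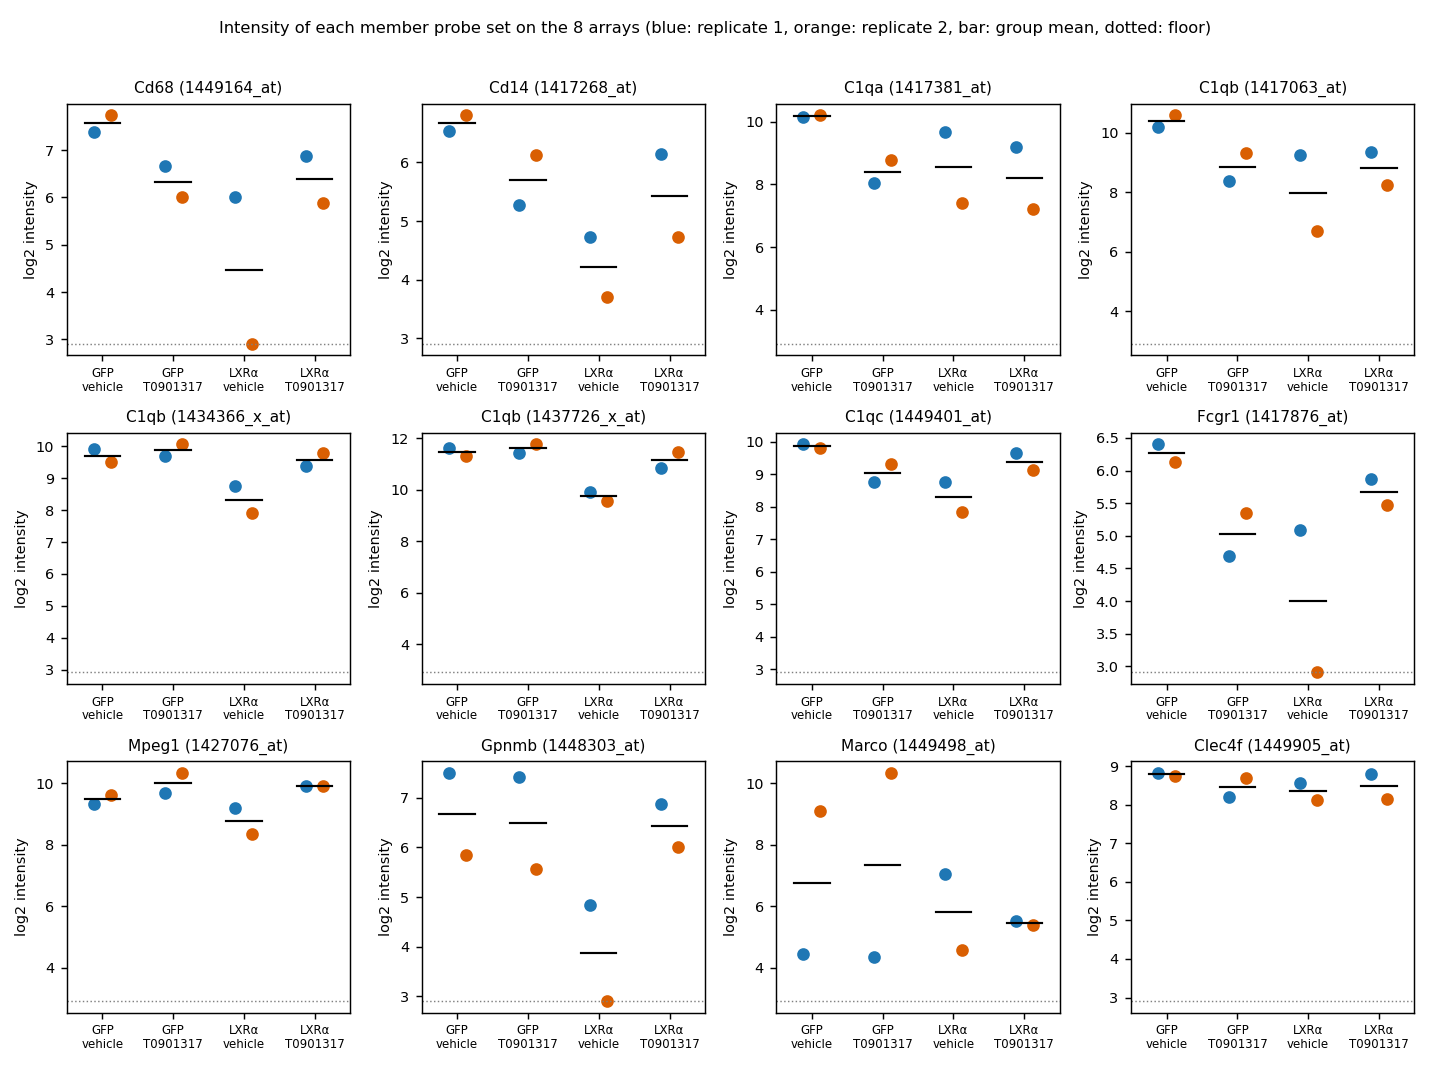
Log2 intensity of each of the 12 probe sets of the 10 macrophage genes on each of the 8 arrays, by group, with 1 point per array and a bar at the group mean. The LXRα vehicle replicate 2 array has the lowest point of most panels, with Cd68 at 6.85, Fcgr1 at 7.48 and Gpnmb at 6.20 in intensity before the floor, and Marco is high on replicate 2 of both GFP groups.

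The RNA and the cell makeup of the arrays bear on every value. Array medians lay between 21.0 and 23.2, and the arrays of a group correlated at a Pearson r of 0.949 to 0.978. The ratio of 3' to 5' signal of β-actin, a sign of RNA quality, was 2.08 to 3.08 on the vehicle arrays and 2.75 on LXRα T0901317 replicate 1. The GFP T0901317 arrays had ratios of 7.56 and 11, and LXRα T0901317 replicate 2 had 36.3. An 18S ribosomal RNA control set all T0901317 arrays apart, replicate 1 of the LXRα group included. It gave 23.9 and 11.8 on GFP T0901317 and 45.3 and 33.8 on LXRα T0901317, against 245 to 638 on the vehicle arrays. What this means for the markers was not tested. Markers of hepatocytes, the bulk of the tissue, were at 111707 and 124520 in summed intensity in GFP vehicle livers and at 142499 and 129822 in LXRα vehicle livers, with 8 of 9 higher and a median difference of 0.22. In a whole-liver sample, fewer macrophages and less RNA per macrophage cannot be told apart. P-values measure the spread between these 8 samples, and with 2 arrays a group their number limits the precision.

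The C1q genes come first. C1qa (1417381_at) gave 1146 and 1184 on the GFP vehicle arrays, 265 and 436 on GFP T0901317, 823 and 172 on LXRα vehicle, and 588 and 150.3 on LXRα T0901317. Both GFP vehicle arrays lay above all 6 others, and the arrays within each LXRα group differed widely, 4.80-fold with vehicle and 3.91-fold with T0901317. The differences were -1.63 for LXRα against GFP with vehicle (SE 0.85, adjusted p = 0.963) and -1.78 for T0901317 in GFP livers (adjusted p = 0.433). T0901317 in LXRα livers gave -0.34 (adjusted p = 0.856), and this turned to 0.64 without LXRα T0901317 replicate 2, the array with the highest β-actin ratio.

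C1qb is represented by 3 probe sets. The first, 1417063_at, gave 1158 and 1535 on GFP vehicle, 332 and 641 on GFP T0901317, 613 and 105 on LXRα vehicle, and 656 and 304 on LXRα T0901317. As for C1qa, both GFP vehicle arrays were above all others, and the LXRα vehicle pair differed 5.86-fold. The other probe sets end in x_at, which means that some of their probes also match other transcripts. Of these, 1437726_x_at gave 3115 and 2522 on GFP vehicle, 2777 and 3502 on GFP T0901317, 972 and 751 on LXRα vehicle, and 1818 and 2797 on LXRα T0901317. The third, 1434366_x_at, gave 970.0 and 729 on GFP vehicle, 833 and 1082 on GFP T0901317, 430.3 and 241 on LXRα vehicle, and 669 and 886 on LXRα T0901317. Both x_at probe sets had their lowest values on the LXRα vehicle arrays, below all 6 others, and neither was lower with T0901317 in GFP livers.

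The 3 probe sets of C1qb thus had the same direction for the transgene and different directions for T0901317 in GFP livers. The LXRα difference with vehicle was -2.39 (SE 0.82, adjusted p = 0.881) for 1417063_at, -1.71 (SE 0.29, adjusted p = 0.523) for 1437726_x_at and -1.38 (SE 0.35, adjusted p = 0.685) for 1434366_x_at. The value of -1.71 was the closest to a call of the 12 probe sets in that comparison. T0901317 in GFP livers gave -1.53, 0.15 and 0.17 in the same order. With the β-actin ratio in the fit these values were -0.91 (SE 1.08), -0.20 (SE 0.30) and -0.05 (SE 0.44). In GFP livers both T0901317 arrays had higher ratios than both vehicle arrays, so the ratio and T0901317 are largely confounded there. The part of RNA quality in the disagreement was not tested.

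C1qc (1449401_at) gave 979 and 889 on GFP vehicle, 434 and 643 on GFP T0901317, 433 and 229 on LXRα vehicle, and 809 and 557 on LXRα T0901317. Its standard error was the smallest of the C1q probe sets other than x_at, and the T0901317 arrays lay below vehicle in GFP livers and above vehicle in LXRα livers with no overlap. LXRα differed from GFP with vehicle by -1.57 (SE 0.38, adjusted p = 0.647). T0901317 gave -0.82 in GFP livers (adjusted p = 0.418) and 1.09 in LXRα livers (adjusted p = 0.318). C1qa, C1qb and C1qc lie next to each other with no other RefSeq gene between them. Over the 8 arrays, log2 levels correlated at r = 0.90 for C1qa with C1qb, 0.91 for C1qb with C1qc and 0.70 for C1qa with C1qc. These correlations describe arrays that share the group structure.

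Among the surface receptors, Cd14 (1417268_at), which presents lipopolysaccharide to the TLR4 receptor, gave 93.0 and 112 on GFP vehicle and 38.7 and 70.1 on GFP T0901317. It gave 26.5 and 13.0 on LXRα vehicle, and 70.4 and 26.4 on LXRα T0901317. Both GFP vehicle arrays were above all others, and LXRα T0901317 replicate 2 was level with LXRα vehicle replicate 1. Between the transgenes with vehicle the difference was -2.46 (SE 0.55, adjusted p = 0.620), a 5.50-fold lower mean. T0901317 gave -0.97 in GFP livers (adjusted p = 0.478) and 1.22 in LXRα livers (adjusted p = 0.395).

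Fcgr1 (1417876_at), the high-affinity IgG receptor CD64, gave 84.9 and 70.0 on GFP vehicle and 25.9 and 40.7 on GFP T0901317. It gave 34.1 and 7.48 on LXRα vehicle, and 58.5 and 44.5 on LXRα T0901317. The T0901317 arrays were below vehicle in GFP livers and above vehicle in LXRα livers without overlap. Under T0901317 the LXRα arrays also lay above both GFP arrays, by 0.65 (SE 0.64, adjusted p = 1). The LXRα difference with vehicle was -2.27 (SE 0.64, adjusted p = 0.774), and it was -1.18 without LXRα vehicle replicate 2, whose value was just under the floor. T0901317 gave -1.25 in GFP livers (adjusted p = 0.454) and 1.67 in LXRα livers (adjusted p = 0.351).

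Marco (1449498_at), a scavenger receptor for bacteria and particles, varied most between arrays of a group. It gave 21.9 and 543 on GFP vehicle, 20.5 and 1303 on GFP T0901317, 132 and 23.9 on LXRα vehicle, and 45.3 and 41.7 on LXRα T0901317. Replicate 2 exceeded replicate 1 by 24.7-fold with vehicle and 63.6-fold with T0901317 in GFP livers, so no group comparison exceeded the spread: -0.96 for LXRα with vehicle (SE 2.15, adjusted p = 0.985), 0.58 for T0901317 in GFP livers and -0.37 in LXRα livers. The direction of the first turned to 1.36 without GFP vehicle replicate 2. The same arrays stood highest for neutrophil markers, whose summed intensity over 4 tested genes of a list of 10 was 104 and 278 on GFP vehicle and 86.8 and 496 on GFP T0901317. That sum was 81.8 and 131 on LXRα vehicle and 74.5 and 136 on LXRα T0901317, none of the 4 genes was at the floor, and the part of neutrophils in the Marco values was not tested.

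Clec4f (1449905_at), a lectin that in mice is made almost only by Kupffer cells, had the narrowest range over the 8 arrays of the 12 probe sets. It gave 457 and 430.6 on GFP vehicle, 295 and 417 on GFP T0901317, 381 and 279 on LXRα vehicle, and 447 and 286 on LXRα T0901317. The GFP vehicle arrays were above both LXRα vehicle arrays and both GFP T0901317 arrays, and in LXRα livers the vehicle and T0901317 arrays overlapped. LXRα differed from GFP with vehicle by -0.44 (SE 0.32, adjusted p = 0.963). T0901317 gave -0.34 in GFP livers (adjusted p = 0.620) and 0.13 in LXRα livers (adjusted p = 0.849).

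Of the intracellular proteins, Cd68 (1449164_at), a glycoprotein of macrophage lysosomes, gave 168 and 213 on GFP vehicle and 101 and 64.2 on GFP T0901317. It gave 64.3 and 6.85 on LXRα vehicle, and 118 and 59.1 on LXRα T0901317. Both GFP vehicle arrays were above all others, and LXRα vehicle replicate 2 was below the floor. Between the transgenes with vehicle the difference was -3.10 (SE 0.91, adjusted p = 0.826), an 8.59-fold lower mean, and it was -1.55 without LXRα vehicle replicate 2. T0901317 gave -1.23 in GFP livers (adjusted p = 0.545) and 1.93 in LXRα livers (adjusted p = 0.408).

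Gpnmb (1448303_at), a transmembrane glycoprotein abundant in lipid-loaded macrophages, gave 182 and 57.6 on GFP vehicle and 172 and 47.4 on GFP T0901317. It gave 28.5 and 6.20 on LXRα vehicle, and 117 and 64.6 on LXRα T0901317. Both LXRα vehicle arrays were below the 6 other arrays, replicate 2 of them being below the floor. Within each group replicate 1 was above replicate 2. The LXRα difference with vehicle was -2.81 (SE 0.89, adjusted p = 0.859), a 7.0-fold lower mean, and it was -1.84 without LXRα vehicle replicate 2. T0901317 in LXRα livers gave 2.57 (adjusted p = 0.318). T0901317 in GFP livers gave -0.18 (adjusted p = 0.926).

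Mpeg1 (1427076_at) encodes perforin-2, a pore-forming protein of phagosomes. It gave 637 and 789 on GFP vehicle, 829.5 and 1299 on GFP T0901317, 585 and 326 on LXRα vehicle, and 957 and 961 on LXRα T0901317. All 4 T0901317 arrays lay above all 4 vehicle arrays, which held for 1 of the 10 genes, against 8.2% of all probe sets. The T0901317 difference was 0.55 in GFP livers (SE 0.36, adjusted p = 0.512), 1.13 in LXRα livers (adjusted p = 0.283) and 0.84 averaged over the transgenes (SE 0.25, adjusted p = 0.139). LXRα differed from GFP with vehicle by -0.70 (adjusted p = 0.963).

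**Figure D2:**
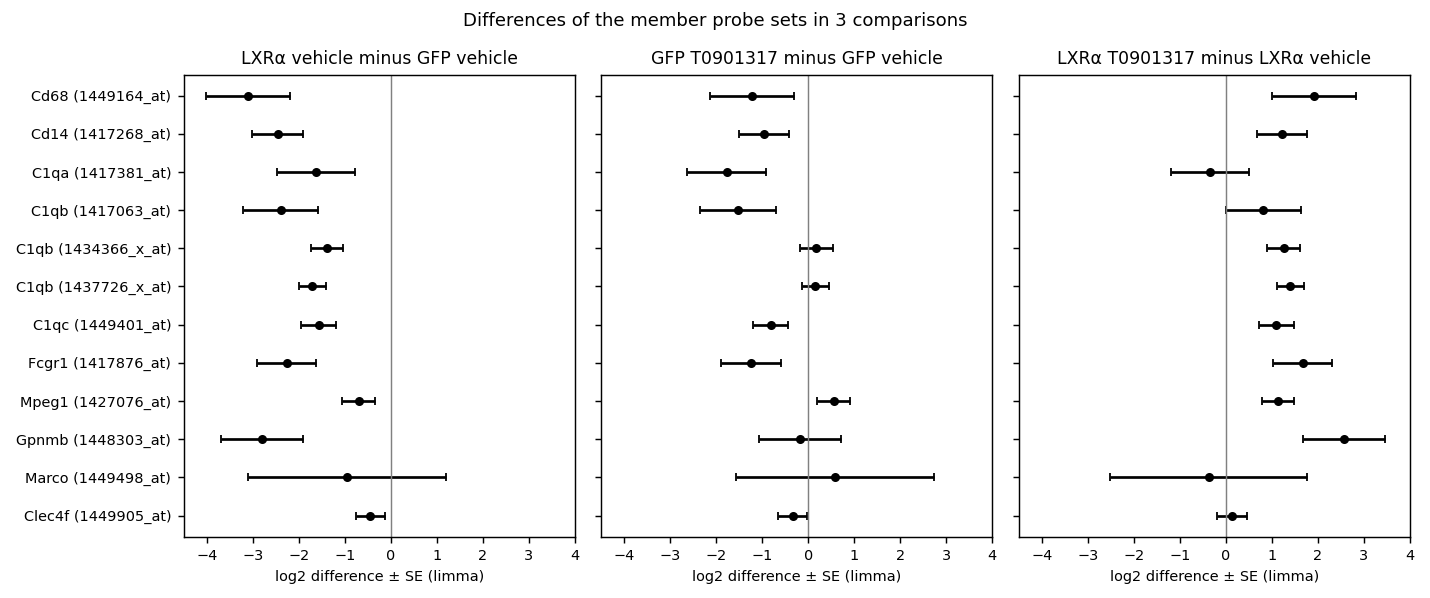
Log2 difference of each of the 12 probe sets in the comparisons of LXRα with GFP in vehicle livers and of T0901317 with vehicle in GFP and in LXRα livers, as points with bars for the limma standard error. All 12 points of the transgene comparison lie below 0, from -3.10 for Cd68 to -0.44 for Clec4f, and the bar of Marco, with an SE of 2.15, is the widest.

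The comparison of the transgenes in vehicle livers asked what hepatic LXRα changes without added agonist. All 10 genes and all 12 probe sets had lower means in LXRα livers, where 40.2% of all probe sets did. No member was called by limma, as against 0.00631% of all probe sets (1 of 15838). At an unadjusted p under 0.05 there were 8 of the 12, against 5.15% of all. The LXRα vehicle arrays lay below both GFP vehicle arrays without overlap for 9 of 10 genes and 11 of 12 probe sets, Marco being the exception, against 13.5% of all probe sets. The transgene difference averaged over vehicle and T0901317 contains these same vehicle arrays and had a median of -1.07, which was -0.48 without LXRα vehicle replicate 2. In it 0 of 12 were called (0.00631% of all) and 3 of 12 were at an unadjusted limma p under 0.05, against 2.66% of all.

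The LXRα vehicle arrays differed from each other more for these genes than for most. All 10 genes were higher on replicate 1, 7 of them by more than 1 on the log2 scale, against 3.23% of all probe sets, and the median gap was 2.06, against a median absolute gap of 0.189 over all probe sets. A gap of more than 1 in either direction was found for 7 of 10 genes in LXRα vehicle livers (4.31% of all probe sets), 2 in GFP vehicle (3.76%), 2 in GFP T0901317 (4.13%) and 3 in LXRα T0901317 (11%). Relative to the GFP vehicle mean of each gene, the 10 genes had a median of -1.11 for LXRα vehicle replicate 1 and of -2.87 for replicate 2. Taken alone, either array was still below both GFP vehicle arrays for 9 of 10 genes, against 24.1% of all probe sets for replicate 1 and 26.8% for replicate 2. The size of the difference therefore depends on which array is used, and its direction in 9 genes does not. β-actin 3'/5' ratios of 2.61 and 3.08 were measured on the 2 arrays.

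**Figure D3:**
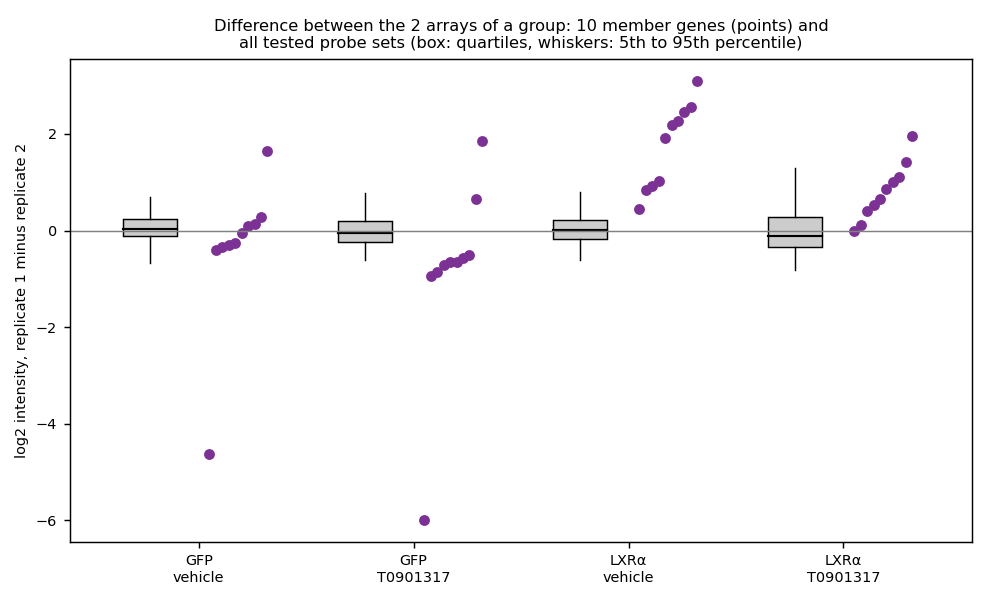
Log2 difference between replicate 1 and replicate 2 of each group for the 10 macrophage genes, with 1 point per gene, beside the spread of all tested probe sets. In LXRα vehicle livers all 10 points lie above 0 with a median of 2.06, and in the GFP groups the lowest points are those of Marco.

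T0901317 in GFP livers addressed the response to agonist with the mouse's own receptors. The median over the 10 genes was -0.89, against -0.05 over all probe sets. Mpeg1 and Marco were the genes with higher means. None was called, as was the case for 0% of all probe sets, and 0 of 12 were at an unadjusted limma p under 0.05, against 13.2% of all. The arrays did not overlap for 7 genes that were lower, against 35.2% of all probe sets, and for 1 gene that was higher, Mpeg1, against 23.2%. Both GFP T0901317 arrays carry raised β-actin ratios, and with that ratio as a covariate the median was -0.37.

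T0901317 in LXRα livers addressed the agonist response with the human receptor added. The median over the 10 genes was 1.11, against -0.05 over all probe sets, with C1qa and Marco lower. None was called (0.0253% of all), 6 of 12 were at an unadjusted p under 0.05 (13.2% of all), and 4 genes were higher without overlap (C1qc, Fcgr1, Mpeg1 and Gpnmb) together with both x_at probe sets of C1qb, against 20% of all probe sets. This comparison and that of the transgenes in vehicle livers share both LXRα vehicle arrays, so low values there enter both with opposite signs. The median was 0.48 without LXRα vehicle replicate 2 and 1.64 without replicate 1. It was 1.37 without LXRα T0901317 replicate 2 and 0.67 without replicate 1 of that group.

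Between the transgenes under T0901317 the 10 genes had a median difference of -0.05, with 6 lower and 4 higher. None was called, as for 0% of all probe sets, 0 of 12 were at an unadjusted limma p under 0.05, against 2.24% of all, and 1 gene, Fcgr1, was higher without overlap (10.6% of all). Averaged over the transgenes, T0901317 gave a median of 0.13, with 0 of 12 called (0.568% of all) and 3 of 12 at an unadjusted p under 0.05, against 23.2% of all, namely Mpeg1 and the x_at probe sets of C1qb. That share of the 12 is near that of all probe sets. Of these, 1437726_x_at differed by 0.78 (SE 0.21, adjusted p = 0.114), and without LXRα T0901317 replicate 1 it was called, at 0.93 (adjusted p = 0.0436). In that setting 1508 of 15838 probe sets were called, against 90 with all arrays, and the array that remains in the group is the one with the β-actin ratio of 36.3, whose part was not tested.

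The difference between the T0901317 effects under the transgenes, tested as the interaction, was above 0 for 9 of 10 genes, with a median of 2.05 against -0.02 over all probe sets. None was called (0.00631% of all), and 5 of 12 were at an unadjusted p under 0.05 (4.77% of all). It was 3.15 for Cd68 (SE 1.29), 2.92 for Fcgr1 (SE 0.91), 2.75 for Gpnmb (SE 1.26) and 2.19 for Cd14 (SE 0.78), all with an adjusted p of 1.00. C1qc, at 1.91 (SE 0.54), had the smallest adjusted p, 0.957. T0901317 arrays that were lower without overlap in GFP livers and higher without overlap in LXRα livers were found for 2 of 10 genes, Fcgr1 and C1qc, against 1.41% of all probe sets. Without LXRα vehicle replicate 2 the median of the interaction was 1.26.

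Other macrophage genes were described from lists by their counts, medians and brightest members, and in the 3 comparisons given here none was called. Of 8 resident Kupffer cell genes, 8 were lower in LXRα than in GFP vehicle livers, with a median of -1.01. Cd5l, a secreted scavenger receptor family protein that is also an LXR target, gave 6949 and 5698 on GFP vehicle and 4936 and 2284 on LXRα vehicle, a difference of -0.91. Vsig4, a complement receptor, differed by -0.81, Clec1b by -1.21 and the iron exporter Slc40a1 by -0.14. The list's median was -0.08 with T0901317 in GFP livers and 0.89 in LXRα livers. Its summed intensity was 9720 and 9482 on GFP vehicle, 7716 and 3739 on LXRα vehicle, and 8584 to 11695 on the T0901317 arrays, so replicate 2 of LXRα vehicle stood lowest.

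Of 14 pan-macrophage and myeloid genes, 14 were lower in LXRα vehicle livers, with a median of -1.16. The lysosomal protease Ctss differed by -1.23, lysozyme Lyz2 by -1.87, the growth factor receptor Csf1r by -0.81 and Lgmn, another lysosomal protease, by -1.08. The medians with T0901317 were 0.05 in GFP and 0.93 in LXRα livers. Of 12 genes of monocyte-derived and lipid-associated macrophages, 9 were lower and 3 higher, with a median of -1.14. Here the annexin Anxa5 differed by -1.51, lipoprotein lipase Lpl by -1.41, and the proteases Ctsd and Ctsl by -0.88 and 0.12. The medians with T0901317 were -0.28 in GFP and 1.19 in LXRα livers.

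The partners of C1q, Fcgr1 and Cd14 had smaller median differences. Of 9 complement and Fc receptor partners, 7 were lower and 2 higher in LXRα vehicle livers, with a median of -0.29. The C1 proteases, largely products of hepatocytes, differed by -0.05 for C1s1 and 0.84 for C1ra. The inhibitory receptor Fcgr2b differed by -0.29 and properdin, Cfp, by -1.47. The other genes of this list were named after their values were seen. Among them, C2 differed by 0.76, C3ar1 by -0.54 and C5ar1 by -0.24. The weaker Fc receptors Fcgr3 and Fcgr4 differed by -1.22 (SE 0.64) and -1.52 (SE 0.92). Fcgr4 was under the floor on LXRα vehicle replicate 2. Of 5 genes of the lipopolysaccharide receptor complex, 4 were lower, with a median of -0.10. Tlr4 itself, Cd14's partner, differed by -0.10, its adaptor Myd88 by -0.10, the interleukin 1 antagonist Il1rn by -0.30 and Lbp by 0.34. Tlr4 gave 23.7 and 23.2 on GFP vehicle and 22.8 and 21.2 on LXRα vehicle, near the array medians of 21.0 to 23.2. Of 9 LXR-linked macrophage genes, 5 were lower and 4 higher, with a median of -0.46, Apoe differing by 0.02, Arg1 by 0.04 and Pltp by -1.42. Apoe, Arg1, Pltp, C1s1, C1ra, C2 and Lbp are also made by hepatocytes. With T0901317 the medians of these 3 lists in GFP livers were -0.33, -0.29 and 0.20, and in LXRα livers 0.02, -0.12 and 0.70.

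**Figure D4:**
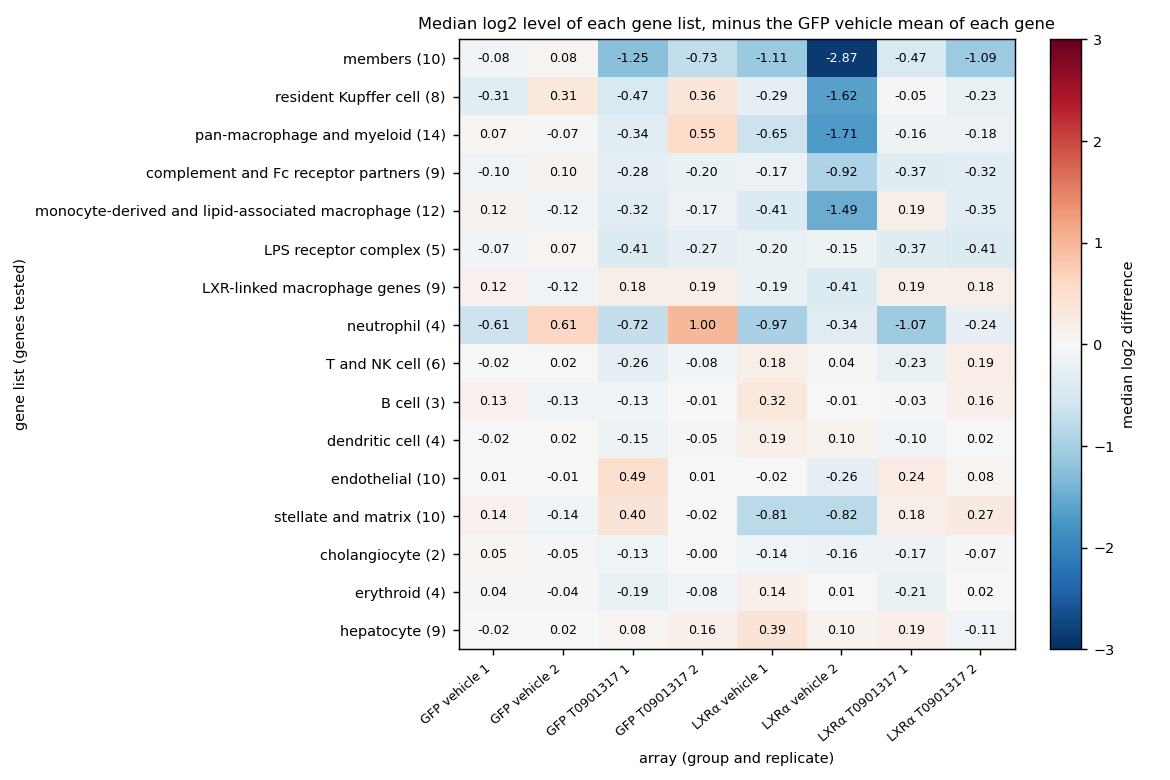
Median log2 level of each gene list on each of the 8 arrays, relative to the GFP vehicle mean of each gene, with the number of tested genes in parentheses. LXRα vehicle replicate 2 is the lowest array for the 10 markers (-2.87), the resident Kupffer cell list (-1.62) and the pan-macrophage list (-1.71). Medians of the T and NK cell, B cell, dendritic cell and erythroid lists lie within 0.325 of 0 on all arrays. Most of the tested T and NK cell, B cell and dendritic cell genes had low intensities. The B cell gene Ighm ranged from 99.5 to 3332 over the arrays, which the median of that list does not show.

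Lists of other liver cells differed in their values. Of 10 stellate cell and matrix genes, 9 were lower in LXRα vehicle livers, with a median of -0.85, and the median with T0901317 in LXRα livers was 1.31. Their summed intensity was 3231 and 1916 on GFP vehicle, 3520 and 2488 on GFP T0901317, 1243 and 999 on LXRα vehicle, and 3066 and 3636 on LXRα T0901317. No gene of that list was at the floor. The values for Col3a1 were 1421 and 600 on GFP vehicle and 215 and 146 on LXRα vehicle. Relative to GFP vehicle, the list's median was -0.81 and -0.82 on the LXRα vehicle arrays, where that of the 10 markers was -1.11 and -2.87. Its part in the macrophage values was not tested. In the transgene comparison the medians were -0.13 for 10 endothelial, 0.10 for 6 T and NK cell, 0.16 for 3 B cell, 0.13 for 4 dendritic cell, -0.68 for 4 neutrophil, -0.15 for 2 cholangiocyte and 0.02 for 4 erythroid genes. Of the endothelial genes 7 were lower and 3 were higher. Most T and NK cell, B cell and dendritic cell genes were weak. The B cell gene Ighm was stronger, at 211 and 143 on GFP vehicle and 379 and 99.5 on LXRα vehicle. On the T0901317 arrays Ighm gave 601 and 620 in GFP livers and 3332 and 320 in LXRα livers. On GFP vehicle Cd3e gave 24.7 and 25.3 and Cd22 gave 15.9 and 15.5, where array medians lay between 21.0 and 23.2. Small medians of these lists therefore say little about those cells.

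How alike the 10 genes were was described by the Pearson r of each with the mean of the other 9 over the 8 arrays, on the log2 scale. C1qb had the highest r, 0.957, followed by Cd14 at 0.936, C1qc at 0.924, Fcgr1 at 0.908 and Cd68 at 0.896. Clec4f was at 0.829, C1qa at 0.720, Mpeg1 at 0.649, Gpnmb at 0.564 and Marco at 0.316. Of 9349 other genes, those most like the mean of the 10 were Cfp (r = 0.982), Igsf6 (0.981), Cd53 (0.981), Cyba (0.980), Lyz2 (0.957), Il18bp (0.948), Arhgdib (0.942) and Stx4a (0.935). Cd53 gave 286 and 370 on GFP vehicle, 179 and 302 on GFP T0901317, 200 and 58.7 on LXRα vehicle, and 326 and 194 on LXRα T0901317, with its lowest value on LXRα vehicle replicate 2. The least alike were Xbp1 (-0.951), Rrbp1 (-0.950), Slc37a3 (-0.944) and Zkscan5 (-0.938). Xbp1, a transcription factor of the unfolded protein response, gave 1549 and 1281 on GFP vehicle and 2262 and 3156 on LXRα vehicle. All of these r values share 8 arrays in 4 groups, and they carry no test.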

How the data were processed

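Liver RNA of 8 mice was measured on Affymetrix arrays. The authors deposited 1 linear intensity per probe set and array, and how it was summarised and scaled is not given in the sources used here. Groups came from the labels. The 10 genes and the lists below were chosen with earlier results of these data known. Of 22690 probe sets, 64 controls were left out. Of 22626 others, 20380 had 1 symbol, 691 several and 1555 none in the platform annotation, and 20351 symbols were updated through Entrez IDs. Intensities under 7.50 (the 20th percentile) were set to it before taking log2, keeping the deposited scaling. The 15838 probe sets with a mean above the 30th percentile were tested, which cover 9359 genes.

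A fit of 4 group means on all 8 arrays (limma 3.58.1 in R 4.3.3, eBayes with trend) had 4 residual and 2.93 prior degrees of freedom. Benjamini-Hochberg adjustment ran over all tested probe sets of a comparison, and an adjusted p under 0.05 was called. Unless stated otherwise, p-values are limma's. The steps were tested on simulated data. For genes with several tested probe sets the brightest stood for the gene, and x_at probe sets were passed over where another was tested. All 10 genes were named, with the 4 brightest genes of each macrophage list (resident Kupffer cell, pan-macrophage, complement and Fc receptor, monocyte-derived, lipopolysaccharide receptor and LXR-linked), up to 2 genes of lists of other cell types, and the 8 most and 4 least alike genes. Fcgr3, Fcgr4, C2, C3ar1, C5ar1 and Ighm were named in addition after their values were seen. Alternatives were other normalizations, floors, filters and fits, a replicate block, a covariate for the β-actin 3'/5' ratio, and arrays left out. The counts with 1 array alone were added after seeing the data.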

Additional observations from a re-analysis of the deposited data

Results flagged for a closer look

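For Fcgr1 and C1qc the T0901317 arrays lay on opposite sides of vehicle under the transgenes: in GFP livers both T0901317 arrays were below both vehicle arrays, and in LXRα livers both were above both vehicle arrays. The T0901317 effect in LXRα livers minus that in GFP livers was 2.92 on the log2 scale for Fcgr1 (SE 0.91), with a limma adjusted p of 1.00 for the interaction. For C1qc it was 1.91 (SE 0.54), with an adjusted p of 0.957. Neither difference passed the test, and 1.41% of all probe sets showed the same arrangement of arrays. Without LXRα vehicle replicate 2 the values were 1.83 for Fcgr1 and 1.45 for C1qc.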

How the results depend on the processing

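With 2 arrays a group, single arrays set most sizes given above, and no probe set of the 10 genes had a call to lose. Of 1015 values of single probe sets over 53 results and all alternatives, 989 kept their direction and side of the threshold, 25 reversed and 1 passed it. With the β-actin covariate, C1qa with T0901317 in LXRα livers turned to 0.62, C1qb 1417063_at averaged over transgenes to 0.23, 1434366_x_at and 1437726_x_at with T0901317 in GFP livers to -0.053 and -0.20, and Gpnmb there to 0.48. Without the 3 T0901317 arrays of high ratio C1qa gave 0.64, and comparisons with GFP T0901317 gave no value. Leaving out each array in turn gave, with T0901317 in LXRα livers, -1.47 to 0.79 for C1qa, -0.46 to 2.09 for C1qb 1417063_at, -0.19 to 0.46 for Clec4f and -1.60 to 0.86 for Marco. In GFP livers it gave -0.031 to 0.38 for 1434366_x_at, -0.013 to 0.32 for 1437726_x_at, -1.11 to 0.75 for Gpnmb and -2.41 to 3.58 for Marco. It gave -0.99 to 0.28 for C1qb 1417063_at averaged over transgenes, and for Marco -3.95 to 2.04 in the interaction and -3.27 to 1.36 between transgenes with vehicle. The median of the 10 genes ranged from -2.87 to -1.11 between transgenes with vehicle and from 1.26 to 2.66 in the interaction. Calls among the 12 ranged from 0 to 1 for T0901317 averaged over transgenes, the 1 being 1437726_x_at (0.93) without LXRα T0901317 replicate 1, a setting in which 1508 of all 15838 probe sets were called. Over all probe sets, calls ranged by array left out from 1 to 33 (1 with all arrays) between transgenes with vehicle, 0 to 43 (0) and 0 to 474 (4) for T0901317 in GFP and LXRα livers, 0 to 6 (0) between transgenes under T0901317, 0 to 25 (1) in the interaction, 0 to 32 (1) for the averaged transgene and 0 to 1508 (90) for averaged T0901317. By other settings, averaged T0901317 gave 4 calls with the covariate, 15 without a filter, 17 with the block, 32 after quantile normalization and up to 111, and without a filter there were 11 calls between transgenes with vehicle, 14 for T0901317 in LXRα livers, 8 in the interaction, 7 for the averaged transgene, 2 for T0901317 in GFP livers and 1 between transgenes under T0901317. The cause was not tested. Same-numbered arrays had deviations that correlated at -0.138 to 0.247. With 2 arrays a group, these correlations cannot decide whether the numbers pair the samples. With the replicate number as a block the medians of the 10 genes were the same (-1.95 between transgenes with vehicle), 0 of 12 probe sets were called, and the interaction had 0 calls.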

Other observations

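Fabp5, a fatty acid binding protein listed among lipid-associated macrophage genes and also made by other cells, was the one gene of that list to pass the test, and it was singled out after its values were seen. It gave 92.5 and 181 on GFP vehicle, 1372 and 3692 on GFP T0901317, 402 and 476 on LXRα vehicle, and 1619 and 3410 on LXRα T0901317. Averaged over the transgenes it rose by 3.27 on the log2 scale with T0901317 (SE 0.41, limma adjusted p = 0.0480). In that comparison 0.568% of all probe sets (90) were called. Its call was not followed over the alternatives, and the values of its 1 other probe set are not given here. All 4 T0901317 arrays were above all 4 vehicle arrays. In livers without agonist its direction differed from that of the 10 markers: LXRα vehicle livers were higher by 1.76 (SE 0.58, adjusted p = 0.872).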
